A study of Bos indicus with 8 samples.

Results

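The 10 genes described here handle adenosine at the cell surface and inside the cell. They are 4 adenosine receptors (ADORA1, ADORA2A, ADORA2B and ADORA3), 3 equilibrative nucleoside transporters (SLC29A1, SLC29A2 and SLC29A3) and 3 enzymes that make or remove adenosine (NT5E, ADK and ADA). Every probe that carries 1 of these symbols in the platform annotation was taken, which gave 11 probes, with 2 for SLC29A2 and 1 for each other gene. The 10 genes are among 15229 named genes on the array, and all 11 probes are among the 31923 of 43794 probes that passed the detection filter.

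The tested group was 4 pools of cumulus cells, the somatic cells around the oocyte, from cumulus-oocyte complexes cultured for 6 h with 3 mM adenosine, and the other group was 4 control pools cultured without adenosine. Both media held 10% serum, 0.2 mM pyruvic acid, oestradiol at 1 µg/ml and follicle-stimulating hormone at 0.5 µg/ml, the complexes came from 3 to 6 mm follicles of slaughterhouse ovaries, and the species is labelled Bos indicus. Adenosine and control pools of 1 number shared 2 bovine 2-colour arrays, between which the dyes were exchanged, so 8 arrays gave 4 pool pairs. The labels give 10 per pool without saying what was counted, and no label says whether different animals went into each pool, so the tests rest on the spread among these pools, which may be partly technical.

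Outside the cell, ectonucleotidases break ATP and ADP down to AMP, and NT5E, the ecto-5'-nucleotidase also known as CD73, turns AMP into adenosine. Extracellular adenosine acts on the ADORA receptors, of which ADORA1 and ADORA3 lower cyclic AMP through inhibitory G proteins while ADORA2A and ADORA2B raise it, and it enters cells through the SLC29 transporters. Inside, adenosine kinase (ADK) returns it to the AMP pool and adenosine deaminase (ADA) converts it to inosine. In cumulus cells cyclic AMP and purines are known for their part in holding the oocyte in meiotic arrest.

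A gene's ratio below is its log2 ratio of adenosine over control, as the mean ± SD of 4 pool pairs, and its level is the log2 intensity of a pool averaged over both dyes. Levels of different probes are not comparable. A difference was called when its adjusted p in limma, over all 31923 probes, was under 0.05. In bulk RNA, fewer cells of a type and less RNA per cell cannot be told apart.

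On 7 arrays 71% to 87.4% of the probes were detected in a channel. The pair 3 array that held adenosine in Cy3 detected 45.4% in the adenosine channel and 41.3% in the control channel, and without that array the same 4 member probes were called. Across the array 37.2% of the probes were called, 18.7% higher and 18.5% lower with adenosine.

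Of the 11 member probes, 3 rose with adenosine (SLC29A1, the brighter SLC29A2 probe and ADK), 1 fell (NT5E) and 7 did not pass the test. The 4 called probes are a share of the members close to the 37.2% of all probes. The median ratio of the 11 probes was 0.03, against 0.00 for all probes tested, and their median absolute ratio was 0.06, against 0.13.

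**Figure D1:**
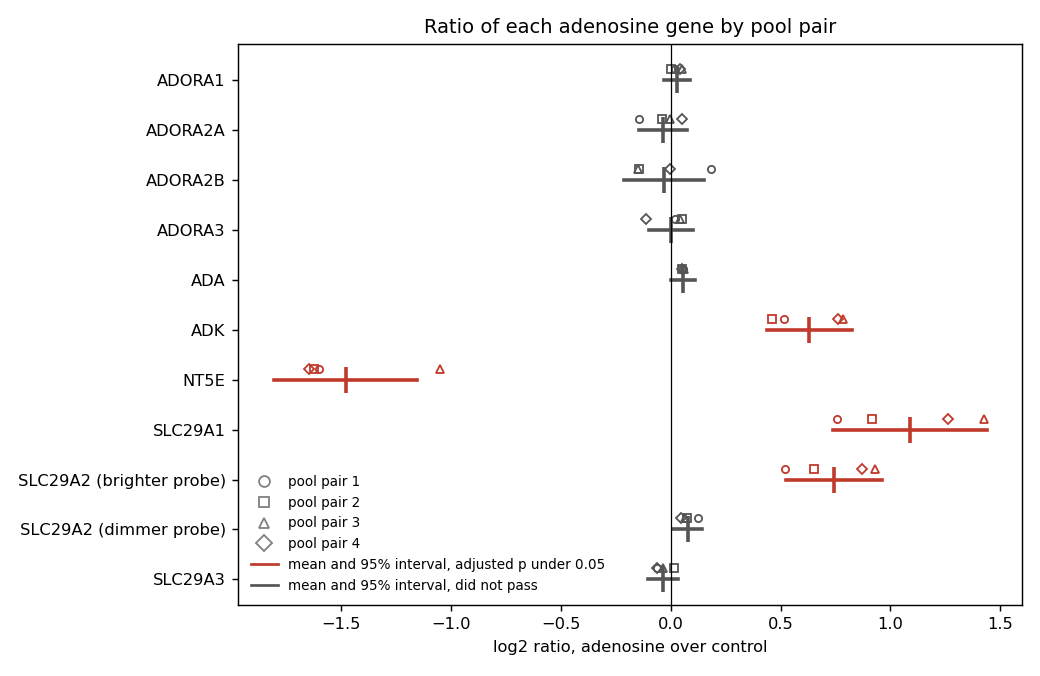
Log2 ratio of adenosine over control (horizontal axis) for each of the 11 member probes. Open symbols are the 4 pool pairs, the vertical tick is their mean and the bar its 95% interval from limma, red where the adjusted p was under 0.05. NT5E lies at -1.48 and SLC29A1 at 1.09, while the ratios of the 4 receptors lie between -0.03 and 0.03.

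Of the 4 receptors, 0 were called by limma, and 0 had an unadjusted p under 0.05. ADORA2A, which couples to stimulatory G proteins, had levels of 7.92, 7.76, 8.02 and 8.29 in the adenosine pools, against 8.06, 7.80, 8.02 and 8.24 in the control pools. The groups overlapped throughout, and the pool numbers differed more from each other than the groups did. Its ratio was -0.03 ± 0.08 with a 95% interval from -0.14 to 0.07 (adjusted p = 0.562). With each array centred on its median in place of loess the ratio was -0.28 and passed (adjusted p = 0.00837).

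ADORA2B, the receptor known for its low affinity for adenosine, had levels of 7.42, 7.30, 7.17 and 7.13 in the adenosine pools, against 7.24, 7.44, 7.31 and 7.13 in the control pools. The groups overlapped here too, with the highest adenosine pool below the highest control pool. The ratio was -0.03 ± 0.16, with an interval from -0.21 to 0.15 (adjusted p = 0.772). Both of these receptors were measured clearly above the detection level, ADORA2A at 3.47 to 5.67 times that level in the adenosine channels and 3.60 to 6.61 times in the control channels, and ADORA2B at 1.82 to 3.26 times and 1.95 to 3.33 times.

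The receptors that act through inhibitory G proteins were near the detection level. ADORA1 exceeded it in 7 of 8 adenosine channels and 7 of 8 control channels, with levels of 6.30 ± 0.04 in adenosine pools and 6.27 ± 0.05 in control pools (SD, n = 4 each). Its ratio was 0.03 ± 0.02, with an interval from -0.03 to 0.09 (adjusted p = 0.371). ADORA3 exceeded the level in 3 of 8 adenosine channels and 7 of 8 control channels, so it was kept through the control pools alone. It had levels of 6.15 ± 0.02 in adenosine pools and 6.15 ± 0.06 in control pools and an interval of the ratio from -0.10 to 0.10 (adjusted p = 0.989). At this brightness the offset of the background correction pulls ratios toward 0, so these intervals bound the shrunken ratio and not the transcript.

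**Figure D2:**
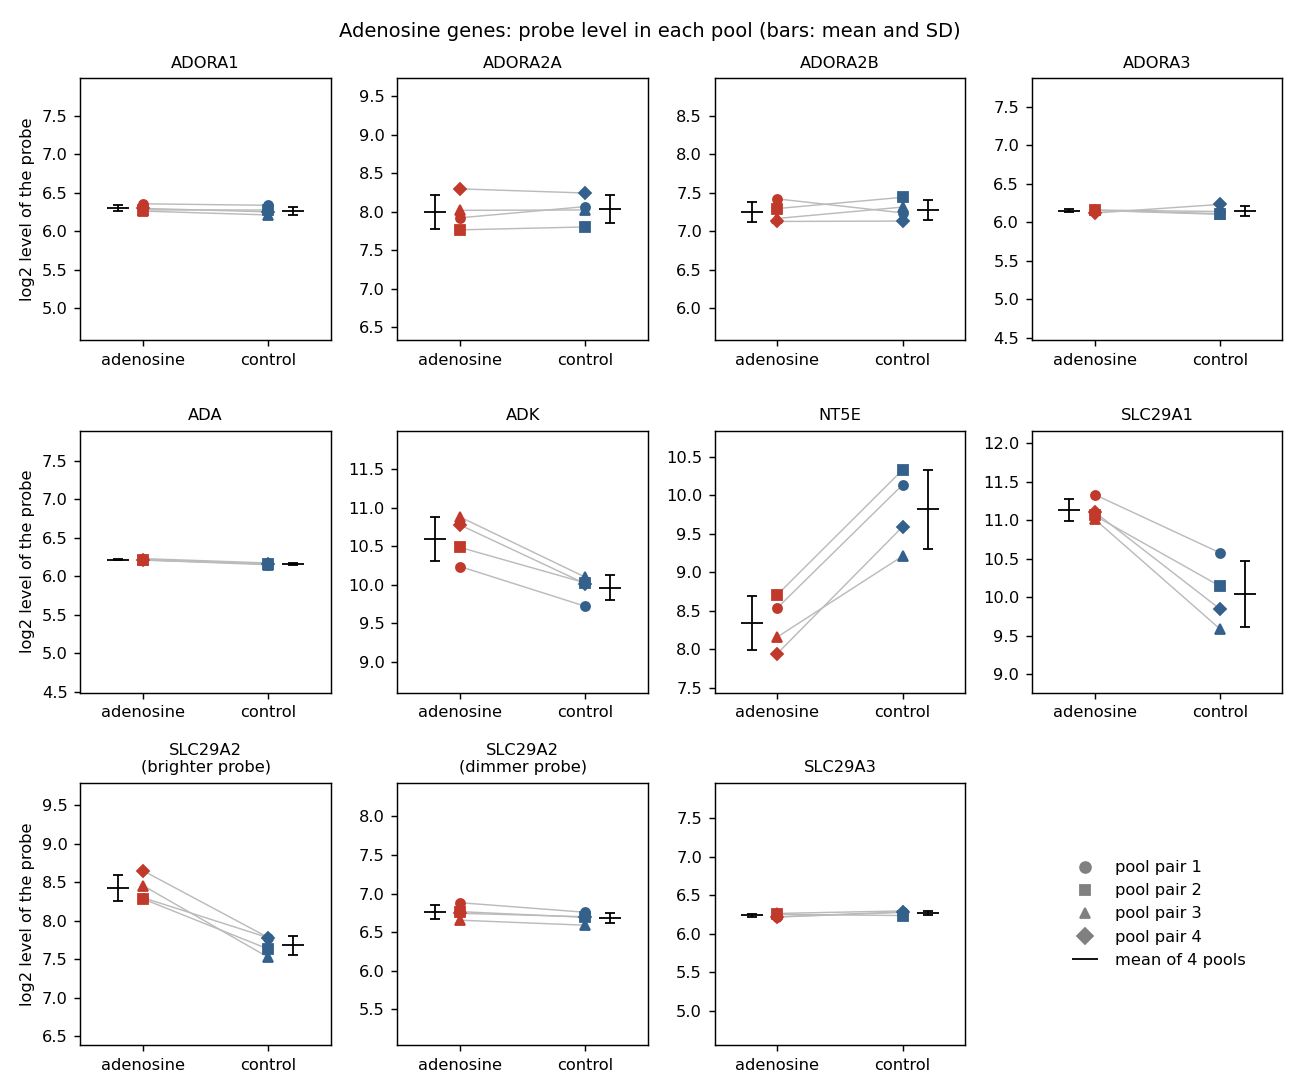
Log2 level of each member probe in the 4 adenosine pools (left in each panel) and the 4 control pools, with lines joining pools of the same number and bars for the mean and SD (n = 4); each panel has its own axis, of the same span. NT5E, SLC29A1, the brighter SLC29A2 probe and ADK show no overlap between the groups, and the ADORA2A and ADORA2B pools overlap.

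Among the transporters, SLC29A1 and SLC29A2, the carriers of the plasma membrane, rose. SLC29A1 had levels of 11.33, 11.06, 11.01 and 11.11 in the adenosine pools, against 10.58, 10.14, 9.59 and 9.85 in the control pools. Every adenosine pool was above every control pool, and the control pools were the more spread group. The mean levels were 11.13 ± 0.14 in adenosine pools and 10.04 ± 0.42 in control pools (SD, n = 4 each). The ratio was 1.09 ± 0.31, a 2.13-fold rise with a log2 interval from 0.74 to 1.44 (adjusted p = 0.00544), and it was above 0 on 8 of 8 arrays. Of all probes tested 98.2% had a lower ratio. With median centring in place of loess SLC29A1 had a ratio of 0.73 and passed (adjusted p = 0.0218).

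The brighter SLC29A2 probe had levels of 8.30, 8.29, 8.46 and 8.65 in the adenosine pools, against 7.78, 7.63, 7.53 and 7.78 in the control pools. The groups did not overlap, and pool 4 was the highest of the adenosine pools. The ratio was 0.74 ± 0.19, a 1.67-fold rise with an interval from 0.52 to 0.96 (adjusted p = 0.00451), again above 0 on 8 of 8 arrays.

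The other SLC29A2 probe gave a different reading. Its levels were 6.88, 6.76, 6.65 and 6.74 in the adenosine pools, against 6.76, 6.69, 6.59 and 6.70 in the control pools. The groups overlapped, although each adenosine pool was above the control pool of its own number. Its ratio was 0.08 ± 0.03 (adjusted p = 0.0744), and it was a dim probe, at 1.08 to 1.95 times the detection level in adenosine channels and 0.853 to 2.15 times in control channels. With the background offset at 0 its ratio was 0.18, still below that of the brighter probe, and the mean of both probes was 0.41. The brighter probe had 0.49 with median centring.

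SLC29A3, a nucleoside carrier of intracellular membranes, was near the detection level, which it exceeded in 7 of 8 adenosine channels and 7 of 8 control channels. Its levels were 6.24 ± 0.02 in adenosine pools and 6.27 ± 0.03 in control pools. The ratio was -0.04 ± 0.04, with an interval from -0.10 to 0.03 (adjusted p = 0.342).

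Among the enzymes, NT5E had the largest absolute ratio of the 11 member probes. Its levels were 8.54, 8.71, 8.16 and 7.95 in the adenosine pools, against 10.14, 10.33, 9.21 and 9.59 in the control pools. No adenosine pool reached the lowest control pool, and in both groups pools 1 and 2 were higher than pools 3 and 4. The mean levels were 8.34 ± 0.35 in adenosine pools and 9.82 ± 0.51 in control pools (SD, n = 4 each). The ratio was -1.48 ± 0.29, a 2.79-fold fall with a log2 interval from -1.80 to -1.15 (adjusted p = 0.00231), below 0 on 8 of 8 arrays. Of all probes tested 2.51% had a lower ratio. NT5E had a ratio of -1.76 with the background offset at 0 and -1.54 with no background correction.

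Markers of other cell types are given here because stromal cells, too, are known to carry NT5E. Over all named genes, each read from its brightest probe, 42.6% were called, 21.8% higher and 20.8% lower. These shares stand beside the counts of every marker list below, in this and the next paragraphs. Of 6 fibroblast and stroma markers 5 were measured, of which 3 fell, 1 rose and 1 did not pass. Their summed level on the linear scale, in which the bright probes of LUM and PDGFRA weigh most, was 1437 to 2142 in adenosine pools, against 4846 to 6615 in control pools. LUM, an extracellular matrix proteoglycan, fell by 1.61 on the log2 scale (± 0.40, adjusted p = 0.004). PDGFRA, a growth factor receptor of mesenchymal cells, fell by 2.15 (± 0.50, adjusted p = 0.00345), and DCN, another matrix proteoglycan, fell by 0.81 (± 0.25, adjusted p = 0.00674). DCN is dim and fell by 1.80 with an offset of 0. It exceeded the detection level in 5 of 8 adenosine channels and 8 of 8 control channels. DCN was thus kept through the control pools alone, where it is the higher. COL1A1, a collagen, had 0.14 ± 0.06 (adjusted p = 0.0346) and did not pass when any 1 pool pair was left out. Its ratio was -0.30 with adenosine in Cy5 and 0.59 in Cy3, so the mean joins opposite signs. COL3A1, another collagen, had 0.05 ± 0.20 (adjusted p = 0.68). It was dim, with mean levels of 6.35 in adenosine pools and 6.30 in control pools. COL1A2, the marker that was not measured, exceeded the detection level in 2 of 8 adenosine channels and 3 of 8 control channels. These markers were named after their values were seen, and their part in the result of NT5E was not tested.

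Of 5 endothelial markers 3 were measured, of which 1 fell and 2 did not pass, with summed levels of 223.7 to 229.3 in adenosine pools, against 299.3 to 361.6 in control pools. The marker that fell was KDR, a receptor for vascular growth factors (adjusted p = 0.0032). It exceeded the detection level in 0 of 8 adenosine channels and 8 of 8 control channels. KDR was thus kept through the control pools alone, where it is the higher. Of 5 leukocyte markers 3 were measured, of which 1 fell and 2 did not pass, with summed levels of 404 to 1169 in adenosine pools, against 417.8 to 1586 in control pools. The marker that fell was CD68, a lysosomal protein of macrophages (-0.56 ± 0.21, adjusted p = 0.0112). Both were named after their values were seen, and their part in the result of NT5E was not tested.

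Of 10 cumulus and granulosa markers 9 were measured, of which 5 rose, 1 fell and 3 did not pass. Their summed levels were 66130 to 79270 in adenosine pools and 59720 to 66490 in control pools. The bright probes of SERPINE2, INHBA and INHA, named after their values were seen, weigh most in these sums. With adenosine in Cy5 and in Cy3, SERPINE2 had ratios of 1.78 and -0.17, INHBA of -0.03 and -1.93, and INHA of 1.06 and 0.76. The 9 measured oocyte markers, of 11 in the list, had a median ratio of -0.03 and summed levels of 830.1 to 892.6 in adenosine pools, against 827.4 to 1550 in control pools. In pool pair 2 alone, FIGLA and ZP4, named after their values were seen, had ratios of -1.89 and -1.83, and without that pair the same 4 member probes were called.

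ADK, which phosphorylates adenosine to AMP, had levels of 10.23, 10.48, 10.88 and 10.77 in the adenosine pools, against 9.72, 10.02, 10.10 and 10.01 in the control pools. The lowest adenosine pool was above the highest control pool. The ratio was 0.63 ± 0.17, a 1.55-fold rise with an interval from 0.44 to 0.82 (adjusted p = 0.00489), above 0 on 8 of 8 arrays. With median centring in place of loess the ratio was 0.27 and did not pass (adjusted p = 0.0717).

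ADA, the deaminase, was near the detection level, which it exceeded in 7 of 8 adenosine channels and 6 of 8 control channels, and it was kept through the adenosine pools alone. Its levels were 6.23, 6.21, 6.21 and 6.21 in adenosine pools, against 6.17, 6.16, 6.15 and 6.16 in control pools. These ranges did not overlap but lay close together, and the ratio was 0.06 ± 0.0047 (adjusted p = 0.103). The ratio split by dye: with adenosine in Cy5 it was 0.14, and in Cy3 it was -0.03. The ratio passed with an offset of 0 (0.21, adjusted p = 0.0386), with median centring (0.10, adjusted p = 0.0358) and on the Cy5 slide alone (0.14, adjusted p = 0.0162), and it was -0.11 in the authors' normalized ratios.

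The levels of the 4 called genes did not overlap between the groups, while those of ADORA1, ADORA2A, ADORA2B, ADORA3 and SLC29A3 did. Those of ADA did not overlap either, but ADA passed the detection filter only through the adenosine pools, where it is the higher, and it is not counted. Over all named genes 31.1% had levels that did not overlap.

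The pool pairs did not respond alike. SLC29A1 had ratios of 0.76 and 0.92 in pairs 1 and 2 and of 1.43 and 1.26 in pairs 3 and 4. SLC29A2 had 0.52 and 0.65 in pairs 1 and 2 and 0.93 and 0.87 in pairs 3 and 4, and ADK had 0.52 and 0.46 against 0.78 and 0.76. In the 3 genes that rose, both ratios of pairs 3 and 4 thus exceeded both of pairs 1 and 2. NT5E did not follow this split, with ratios of -1.60, -1.62, -1.05 and -1.65 in pairs 1 to 4, so its smallest fall was in pair 3, where SLC29A1, SLC29A2 and ADK had their largest rise.

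**Figure D3:**
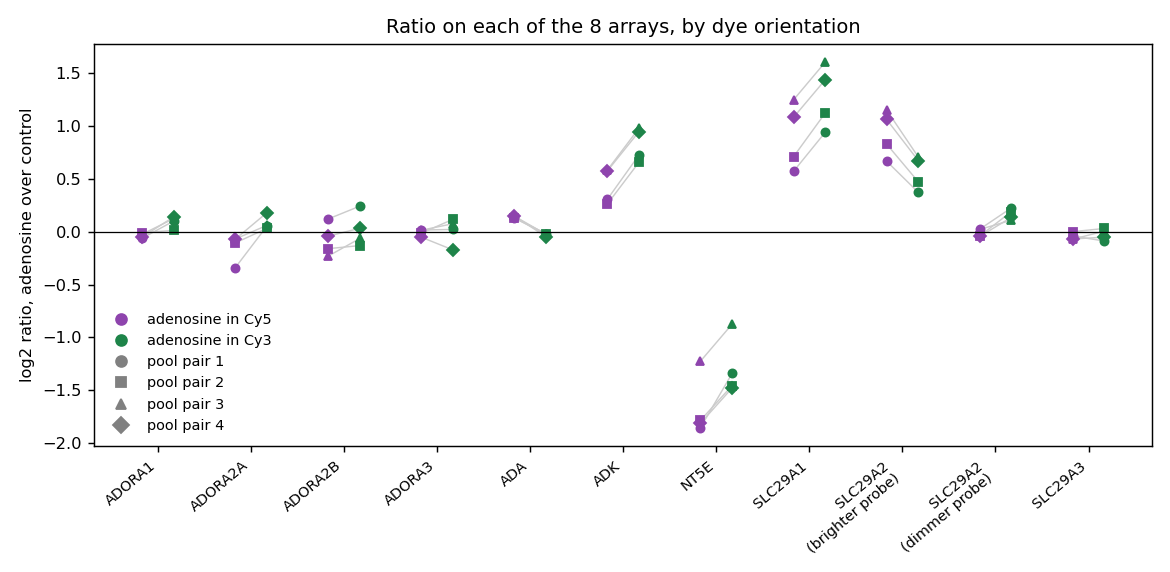
Log2 ratio of adenosine over control on each of the 8 arrays for the 11 member probes, with adenosine in Cy5 (purple) on the left and in Cy3 (green) on the right; symbols mark pool pairs and lines join the 2 arrays of a pair. NT5E stays below 0 and SLC29A1, the brighter SLC29A2 probe and ADK stay above 0 on 8 of 8 arrays. All receptors, ADA and the dimmer SLC29A2 probe average on opposite sides of 0 in the 2 orientations.

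The 2 dye orientations were compared probe by probe; orientation coincides with the slide, so dye and slide cannot be told apart. The Cy5 ratio (adenosine in Cy5) minus the Cy3 ratio (adenosine in Cy3) passed the test for 8 of the 11 member probes, against 56.1% of all probes. ADORA2B, ADORA3 and SLC29A3 did not pass. NT5E had -1.67 in Cy5 and -1.29 in Cy3, a difference of -0.38 (adjusted p = 8.3e-05). SLC29A1 had 0.90 in Cy5 and 1.28 in Cy3 (adjusted p of the difference = 3.62e-05). ADK had 0.43 and 0.83 in the same order, and SLC29A2 ran the other way, with 0.93 in Cy5 and 0.56 in Cy3. In these 4 genes, with SLC29A2 read from its brighter probe, the orientation changed the size and not the direction. The dimmer SLC29A2 probe had -0.01 in Cy5 and 0.16 in Cy3. ADORA2A had -0.15 in Cy5 and 0.08 in Cy3, so its mean near 0 joins opposite signs. ADORA1, with -0.04 in Cy5 and 0.09 in Cy3, ADORA2B, with -0.08 and 0.02, and ADORA3, with -0.01 and 0.01, joined opposite signs too.

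Genes whose levels followed the called members over the 8 pools were read from the brightest probe of each of 12309 other named genes. For SLC29A1 the highest Pearson r were those of CHCHD10 (0.992), KCNE1L (0.989) and CHMP6 (0.987), and 88 genes exceeded 0.95. For NT5E they were those of MED28 (0.996), SERINC3 (0.995) and BLZF1 (0.992), and 234 genes exceeded 0.95. The 8 points are 4 adenosine and 4 control pools that share arrays in pairs, and r takes no account of the size of a ratio. A difference between the groups raises r by itself, so a high r can restate that difference. CHCHD10 and CHMP6 had ratios of 0.18 and 0.23, KCNE1L had 1.28, MED28 had -0.71, SERINC3 had -1.46 and BLZF1 had -1.25.

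The steps before and after these genes were read from 5 related lists. The counts below stand beside the same shares over all named genes as the marker lists, and beside a median ratio of 0.00 over those genes. The lists were chosen with earlier results of these data known.

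**Figure D4:**
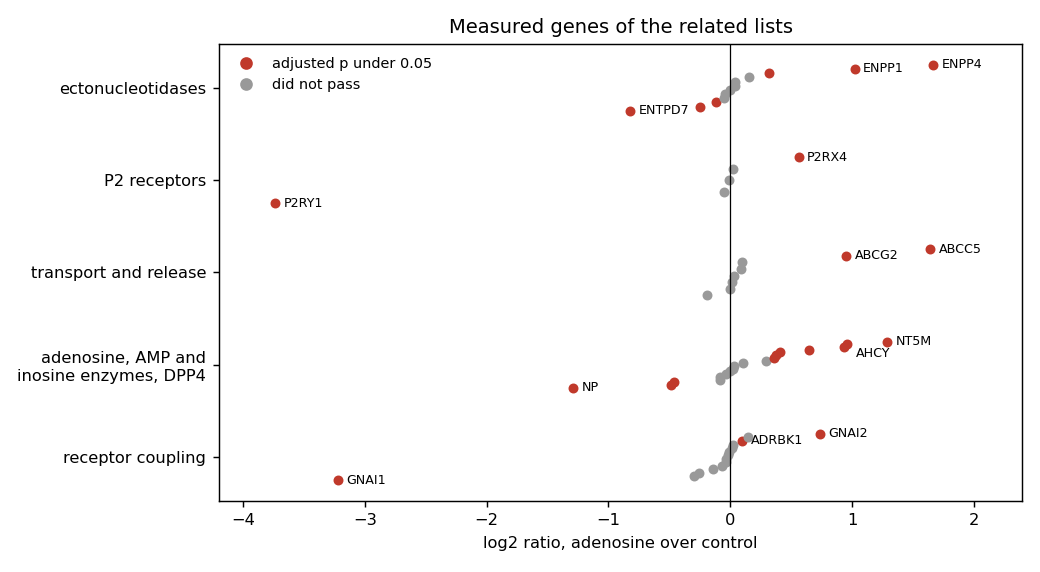
Log2 ratio of adenosine over control for the measured genes of the 5 related lists, 1 point a gene read from its brightest probe, red where the adjusted p was under 0.05. P2RY1 at -3.74 and GNAI1 at -3.22 lie farthest from 0, and ABCC5 and ENPP4 are the farthest on the positive side.

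A list of 18 ectonucleotidases and related enzymes, not all of them upstream of NT5E or at the cell surface, had 12 measured genes. Among those, 3 rose, 3 fell and 6 did not pass, with a median ratio of 0.02. ENPP1, which cleaves ATP to AMP, rose by 1.02 ± 0.40 (adjusted p = 0.0124), and did not pass without pool pair 4 (0.93, adjusted p = 0.0636). ENPP4, which hydrolyses dinucleotides at the cell surface, rose by 1.66 ± 0.53 on its brightest probe (adjusted p = 0.00741), while its other probes, both dim, had 0.11 and 0.08. ENTPD7, an intracellular relative of the surface ATP hydrolases, fell by 0.82 (± 0.29, adjusted p = 0.01), and by 1.56 with an offset of 0.

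The P2 receptors bind ATP, ADP and UTP before these are broken down. On the array were 14, and 5 were measured, of which 1 rose, 1 fell and 3 did not pass (median -0.01). P2RY1, the ADP receptor that couples to calcium release, had ratios of -4.34, -4.21, -3.16 and -3.23 in pairs 1 to 4. Its mean levels were 6.61 in adenosine pools and 10.35 in control pools. The ratio of -3.74 ± 0.62 is a 13.3-fold fall with the offset of 50 (adjusted p = 0.00169). The adenosine level is close to the detection level, which was exceeded in 7 of 8 adenosine channels and 8 of 8 control channels, and the ratio was -5.14 with an offset of 0 and -4.56 in the authors' normalized ratios. P2RX4, an ATP-gated channel, had a ratio of 0.56 ± 0.18 (adjusted p = 0.0084), 0.94 with an offset of 0, and did not pass without the pairing of pools (adjusted p = 0.289).

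Of 10 other nucleoside transport and nucleotide release genes on the array 8 were measured, of which 2 rose and 6 did not pass (median 0.06). ABCC5, an exporter of cyclic nucleotides, rose 3.12-fold (1.64 ± 0.26, adjusted p = 0.00159). ABCG2, an exporter of urate and many drugs, rose by 0.95 ± 0.32 (adjusted p = 0.00819), and by 0.59 with median centring.

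Beside ADK and ADA, a list with 21 genes on the array held enzymes of nucleotides, nucleosides and bases together with DPP4. Not all of these enzymes act on adenosine, AMP or inosine. DPP4 is a surface peptidase known in humans to bind ADA. Of the 21 genes 18 were measured, of which 7 rose, 3 fell and 8 did not pass (median 0.07). NT5M, a mitochondrial nucleotidase, rose by 1.29 ± 0.26 (adjusted p = 0.00257). AHCY, which splits S-adenosylhomocysteine into homocysteine and adenosine, rose by 0.96 ± 0.13 (adjusted p = 0.00132), by 0.63 with median centring, and did not pass without the pairing of pools (adjusted p = 0.256). NP fell by 1.29 (± 0.54, adjusted p = 0.015), and did not pass without pool pair 1 (-1.15, adjusted p = 0.0511) or 4 (-1.40, adjusted p = 0.0552). The annotation's symbol NP was read as nucleoside phosphorylase, which acts on the inosine made by ADA, and this reading was not checked.

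Downstream of the receptors, the list held 21 G protein, adenylate cyclase, receptor kinase and arrestin genes that are on the array. Of these 14 were measured, of which 2 rose, 1 fell and 11 did not pass (median -0.03). GNAI1, an inhibitory G protein subunit, had ratios of -3.06, -3.33, -3.26 and -3.24 in pairs 1 to 4, all close together. Its mean of -3.22 ± 0.12 is a 9.33-fold fall (adjusted p = 0.000161), and its other 2 probes had -3.09 and -0.35, with a mean over the 3 probes of -2.22. The probe at -0.35 was dim, with a mean level of 6.41 over all pools, and was also called lower (adjusted p = 0.0107). GNAI2, another subunit of the same class, rose by 0.73 ± 0.15 (adjusted p = 0.00283). ADRBK1, a kinase that acts on active receptors, had 0.10 ± 0.02 (adjusted p = 0.0299), 0.30 with an offset of 0 and 0.22 in the authors' normalized ratios, and did not pass in 8 of 15 alternative settings.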

How the data were processed

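Per the file headers, the deposited scanner files give mean foreground and median background intensity for 45220 spots in each channel, without background subtraction or normalization. The authors' deposited value table holds log2 ratios that, set against the scanner values, run as adenosine over control on every array (r between 0.928 and 0.971, column medians 0.00566 to 0.0524); the sources used here do not give their normalization and centring. Per the labels' protocols, RNA went through T7 amplification and was labelled chemically with Cy3 or Cy5.

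Intensities were corrected with normexp (offset 50) and normalized by loess, with 1426 control and empty spots at weight 0 and the spots that the files mark as ignored (9 to 29 an array, 0 of them of the members) left out, using limma 3.58.1 (R 4.3.3). All ratios were expressed as adenosine over control, the 2 arrays of a pair were averaged, and lmFit and eBayes tested the 4 pair means against 0, followed by Benjamini-Hochberg adjustment. A dye effect that differs between the slides does not cancel in these means. The detection level was the mean plus 2 SD of 153 negative control spots, and probes had to exceed it on both arrays in 3 or more of the 4 pools of a group. Levels used loess and Aquantile scaling. The scripts were tested on simulated data. The number of arrays limits the precision.

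Same-numbered arrays hold the same 2 RNAs, per the labels. Their deviations correlated between 0.784 and 0.933, and the best match of 8 of 8 arrays was the array of their own number.

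Of the probes, 21790 had 1 gene symbol, 0 several and 22004 none. The symbols are those of the platform annotation. Genes were read from the brightest probe that was kept. Up to 3 called genes with the largest absolute ratio were named from each related list. For the transporter and the enzyme with the largest absolute ratio, the 3 genes most alike were named. The members and lists were chosen with earlier results of these data known. Alternatives covered background, normalization, values, filter, pairing, slide, array, replicates and choice of probe; those for genes of the related lists and markers were added after seeing the data. No coordinates or sequences were used.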

Additional observations from a re-analysis of the deposited data

Results flagged for a closer look

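For 8 member probes the ratio with adenosine in Cy5 differed from that with adenosine in Cy3 (limma, adjusted p under 0.05). The difference was -0.13 for ADORA1, -0.23 for ADORA2A, 0.17 for ADA, -0.40 for ADK and -0.38 for NT5E. It was -0.37 for SLC29A1, and 0.37 and -0.18 for the brighter and the dimmer SLC29A2 probe. Dye and slide cannot be told apart here.

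The NT5E ratio of pool pair 3, -1.05, stood apart from those of the other pairs, which lay between -1.65 and -1.60. The ADORA3 level of adenosine pool 4, 6.12, stood apart from those of the other adenosine pools, 6.15 to 6.16. Among 33 such sets of 4 values, chance marks about 1 in 20.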

How the results depend on the processing

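Over 156 gene and setting combinations for the 10 genes, 151 stayed on the same side of the threshold, and no called ratio changed sign. NT5E, SLC29A1 and SLC29A2 were called in all 16 alternatives each, with ratios of -1.82 to -1.29, 0.73 to 1.28 and 0.41 to 0.97. The 5 exceptions, 1 for ADK, 1 for ADORA2A and 3 for ADA, are given with those genes. Uncalled ratios near 0 did change sign in some settings. The member count was 4 or 5 in every setting and 4 without any 1 pool pair. The count over all probes was 11881, and 7513 from single-channel levels without the replicate block, the pairing that the shared arrays fix. With that block, single-channel levels gave the same 11881 because they repeat the main fit by construction, so this alternative is no separate check. For genes with 1 kept probe, the mean over probes likewise repeats the main ratio. These repeats are included in the counts of alternatives and combinations given here. Leaving out 1 pool pair gave 6610 to 9696 probes, the lowest without pair 4. Median centring split the calls into 4719 higher and 7522 lower, against 5975 and 5906 with loess, and the authors' ratios into 6860 and 5219. Against loess, median centring lowered the ratios of SLC29A1, SLC29A2, ADK, NT5E, ADORA2A and ADORA2B. It raised those of ADORA1, ADORA3, ADA and SLC29A3. The orientation difference was called for 4 member probes in the authors' ratios, and for 7 to 8 when 1 pair was left out. The causes were not tested. The stricter detection filter dropped ADORA1, ADORA3, ADA and SLC29A3, for which signal over background limits what can be seen. For genes of the related lists and the stroma markers, 242 of 255 combinations kept the call.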
